A study of Danio rerio with 32 samples.

Results

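Transcripts of the enzymes that make cholesterol were followed in the livers of male zebrafish (Danio rerio, Tübingen strain) with and without food. The genes sought were acat2, hmgcs1, hmgcra, idi1, fdps, fdft1, sqlea, lss, msmo1 and dhcr7, and their probes were taken by the RefSeq transcript that the array design assigns to each probe. This gave 14 probes of 8 of the 10 genes among 43603 probes on the array, while fdft1 and sqlea were matched to no probe and were not analysed here. Of the 14 probes, 13 passed the filter on signal to noise, as did 16082 probes of the whole array. The probe left out was the dimmer of the pair for hmgcs1.

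The study comprises 32 single-colour Agilent arrays of pooled liver RNA, 12 for food restriction and 20 for exposure to dichlorvos (DDVP), an organophosphorus insecticide that inhibits cholinesterase. Each array holds RNA of 4 or 5 adult fish, so the spread between replicates is that between pools, not between single animals. The fed group (4 arrays) was given flakes 4 h ahead of dissection. A second group (4 arrays) had been without food for 29 h by the study's methods, while its labels give 24 h, and the third (4 arrays) had been without food for 50 h. The unfed groups were otherwise handled as the DDVP fish were, without the agent. The DDVP groups were exposed for 24 h to concentrations labelled 6, 19 and 32 mg/L (low, mid and high, 4 arrays each), and 8 arrays of unexposed fish in 2 sets served as controls.

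Cholesterol is built in the cytosol and the endoplasmic reticulum from acetyl-CoA through mevalonate, isoprenoid diphosphates, squalene and lanosterol. In vertebrates most genes of the pathway are driven together by the transcription factor SREBP2, which is released from the endoplasmic reticulum when membrane sterol is low and held back when sterol is plentiful. The liver is a main site of this synthesis, and in mammals the pathway is known to respond to feeding, to insulin and to cholesterol in the diet.

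The libraries were of like quality. Correlations of each feeding array with all other feeding arrays averaged 0.965 to 0.974, and 48.9 to 56.7% of spots stood well above background. All 14 member probes stood well above background on all 12 arrays. The small number of arrays limits the precision. The 7 hepatocyte marker genes on the array were well above background on every array, with a summed signal, in units of 1000, of 1367 to 1450 in fed, 1282 to 1464 in 29 h and 1356 to 1489 in 50 h livers. Of these genes ahsg2 was lower after 50 h, by a log2 unfed minus fed of -0.66 on its brightest probe. A dimmer ahsg2 probe gave -0.96 (limma adjusted p = 0.0278 and 0.0147). The other 6 were not called after 50 h, and none of the 7 after 29 h. Markers of other cell types varied more. Of the 3 intestine genes past the filter, fabp2 had a log2 signal of 10.3 ± 2.0 (SD) in fed, 12.0 ± 3.6 in 29 h and 12.2 ± 3.1 in 50 h livers. For vil1 it was 9.3 ± 2.2, 10.9 ± 3.9 and 11.4 ± 3.3, while apoa4b.1 varied little (SD 0.03 to 0.12). The summed signal of 16 digestive enzyme genes of the exocrine pancreas was 434 to 1025 in fed, 137 to 432 in 29 h and 139 to 1035 in 50 h livers. Biliary markers (4 of 5 genes well above background throughout) summed to 13.9 to 20.0 in fed, 29.5 to 33.1 in 29 h and 25.3 to 42.6 in 50 h livers, and leukocyte markers (5 of 5) to 10.6 to 23.6, 18 to 42.5 and 23.8 to 43.2. The biliary genes did not move alike. In log2 unfed minus fed at 29 h and 50 h, krt18a.1, the brightest of them, gave 1.11 and 1.29. It was called higher at both times (limma adjusted p = 0.0101 and 0.00585). Next, krt18b gave 0.73 and 0.74, anxa4 0.57 and -0.28, and sox9b -0.15 and -0.51, and these were not called. Of the leukocyte genes mpeg1.1 was called higher after 50 h, by 1.16 (limma adjusted p = 0.0243), a call lost in 9 of 20 other settings. The other 4 leukocyte genes were not called. The part of these cells in the member values was not tested. In bulk liver RNA, fewer cells of a type and less RNA per cell cannot be told apart.

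Levels are given as log2 of the quantile-normalized median spot signal, and levels of different probes are not comparable with each other. Differences are log2 unfed minus fed, from a limma fit over all 12 arrays with Benjamini-Hochberg adjustment over 16082 probes, and a probe is called at an adjusted p of at most 0.05. Of the 13 member probes, 1 was called lower after 29 h (3.6% of all probes were called lower) and none higher (2.15% of all). After 50 h, 2 of the 13 were called lower (2.8% of all) and none higher (3.2% of all). At the stricter adjusted p of 0.001, which the study used across its groups, no member probe was called, against 0.00622% of all probes after 29 h and 0.0187% after 50 h. At an unadjusted p under 0.05 the members numbered 3 of 13 after 29 h and 4 of 13 after 50 h, and 23.2% and 24.1% of all probes passed that level. The called probes belonged to acat2 and hmgcra alone, the enzymes at the entry and at the rate-limiting step. The median over the 8 genes, each by its brightest probe, was -0.20 after 29 h and -0.25 after 50 h, against -0.02 and -0.06 over all probes.

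The gene acat2 encodes the cytosolic acetyl-CoA acetyltransferase, which joins acetyl-CoA units into acetoacetyl-CoA at the head of the pathway. Its brightest probe, A_15_P173496, read 14.63, 12.61, 11.98 and 12.72 in the 4 fed pools. The same probe read 12.17, 11.24, 11.75 and 11.57 after 29 h, and 11.78, 11.67, 11.92 and 11.37 after 50 h. Fed replicate 1 was far above the other fed pools. The 29 h group overlapped the fed group through its replicate 1, whereas all 4 pools of the 50 h group lay below every fed pool. The difference was -1.30 ± 0.44 (SE) at both times, with adjusted p of 0.102 and 0.103, so this probe was not called.

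A dimmer acat2 probe, A_15_P184401, read 10.21, 8.84, 8.12 and 8.63 in the fed pools. After 29 h it read 7.76, 7.37, 7.69 and 7.44, and after 50 h 7.52, 7.46, 7.99 and 7.55. Neither unfed group overlapped the fed group. The signal fell by 1.38 after 29 h (SE 0.34, 95% interval -2.13 to -0.63, adjusted p = 0.0391), which is 2.61-fold lower. It fell by 1.32 after 50 h (SE 0.34, interval -2.07 to -0.57, adjusted p = 0.0448), or 2.49-fold lower. The third acat2 probe, A_15_P116805, gave -1.25 and -1.31 with adjusted p of 0.124 and 0.107. The 3 probes follow the same transcript and moved together across the 12 arrays (Pearson r 0.96 to 1.00 between pairs, as a description), so they are not 3 independent readings. For A_15_P184401 the study's supplement gives the gene as pgd, whereas the array design assigns it the acat2 transcript.

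The calls for acat2 sat close to the threshold. Without fed replicate 1, the highest pool, the A_15_P184401 differences were smaller, -0.96 (adjusted p = 0.0320) and -0.90 (adjusted p = 0.0405), and both were still called. Leaving out each of the 12 arrays in turn gave adjusted p of 0.0317 to 0.0821 after 29 h, with the call lost in 7 of 12 fits, namely without fed replicate 2, without any 1 of the 4 arrays of the 29 h group, and without replicate 1 or 4 of the 50 h group. After 50 h these fits gave 0.0349 to 0.102, and the call was lost in 9 of 12, kept only without fed replicate 1, 3 or 4. Within each of the 3 slides the A_15_P184401 signal was lower in unfed than in fed liver, with differences of -2.65, -0.79 and -1.18 after 29 h and -2.69, -1.02 and -0.85 after 50 h. Each slide held only 1 or 2 arrays of a group, and the only fed array of slide 1 was fed replicate 1, the highest pool. With the slide as a block the adjusted p was 0.0438 after 29 h and 0.0553 after 50 h. With the replicate number as a block it was 0.0550 and 0.0650.

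**Figure D1:**
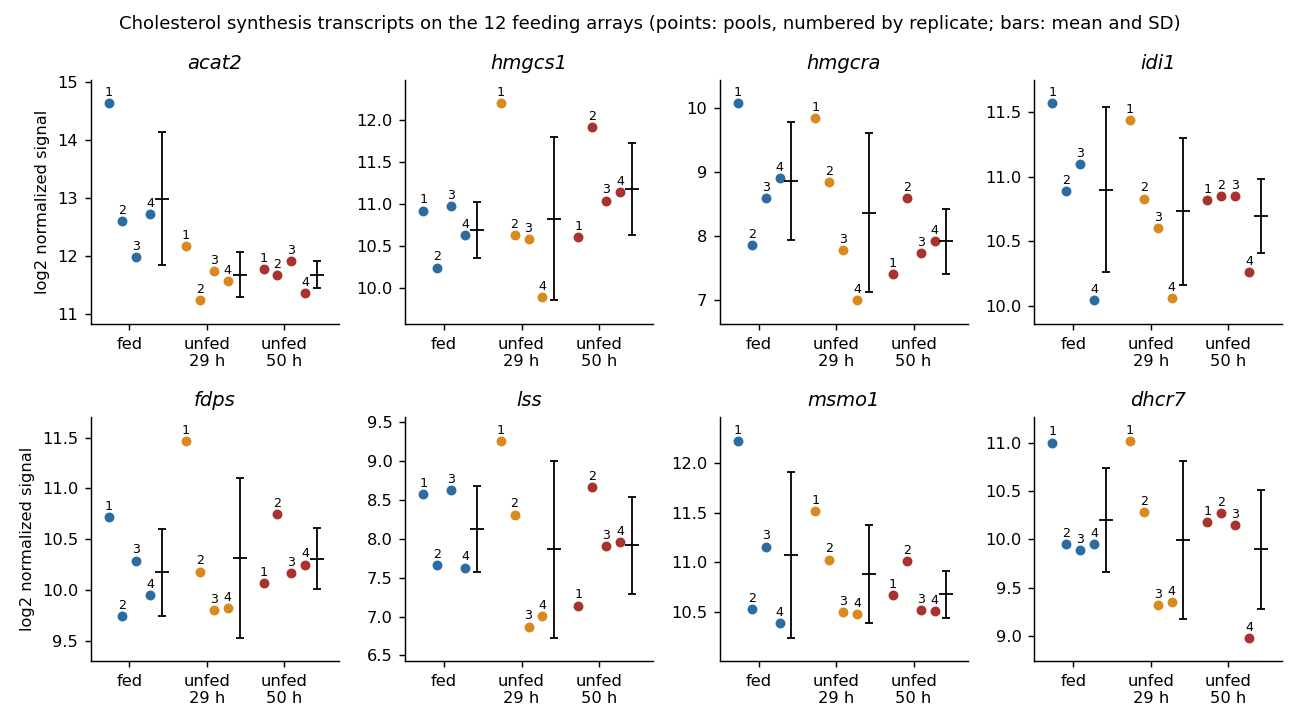
Log2 normalized signal (vertical axis) of the brightest probe of each of the 8 genes in fed, 29 h unfed and 50 h unfed liver, with 4 pools per group numbered by replicate and the mean and SD beside them. For acat2 all 8 unfed pools lie at or below 12.17, while fed replicate 1 reaches 14.63. The 29 h group of acat2 overlaps the fed group and its 50 h group lies below it, and for the other genes the groups overlap.

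The next enzyme is HMG-CoA synthase, encoded by hmgcs1, which adds a further acetyl-CoA unit to make HMG-CoA. Its probe A_15_P102310 read 10.92, 10.24, 10.97 and 10.63 in fed pools, 12.2, 10.63, 10.58 and 9.89 after 29 h, and 10.60, 11.92, 11.04 and 11.14 after 50 h. The groups overlapped, with replicate 1 of the 29 h group and replicate 2 of the 50 h group far above the rest. The differences were 0.14 (95% interval -0.78 to 1.05) and 0.48 (interval -0.43 to 1.4), adjusted p = 0.886 and 0.518. These intervals reach from 1.72-fold lower to 2.08-fold higher after 29 h, and up to 2.64-fold higher after 50 h. Changes within those bounds were not excluded.

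HMG-CoA reductase makes mevalonate and is the main control point of the pathway. Zebrafish carry a pair of genes for it, hmgcra and hmgcrb. For hmgcra, the probe A_15_P147281 read 9.57, 8.0, 8.46 and 8.30 in the fed pools. The unfed pools read 8.37, 8.68, 7.17 and 6.88 after 29 h and 6.62, 7.36, 6.99 and 6.93 after 50 h. The 29 h pools fell into a high pair, replicates 1 and 2, within the fed range, and a low pair below it, and every 50 h pool lay below every fed pool. The difference after 29 h was -0.81 ± 0.42 (SE), adjusted p = 0.273. After 50 h the signal fell by 1.61 (SE 0.42, interval -2.52 to -0.70, adjusted p = 0.0444), which is 3.05-fold lower. The difference between 50 h and 29 h was -0.80 ± 0.42, adjusted p = 0.786, so the times without food were not shown to differ.

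The brighter hmgcra probe, A_15_P206911, was not called. It read 10.07, 7.86, 8.60 and 8.90 in fed pools, 9.84, 8.84, 7.78 and 7.0 after 29 h, and 7.41, 8.60, 7.74 and 7.93 after 50 h. The 50 h group overlapped the fed group, since its replicate 2 lay above fed replicate 2. The differences were -0.49 ± 0.58 and -0.94 ± 0.58 (SE), adjusted p = 0.661 and 0.348. The pair of hmgcra probes had r = 0.86 over the 12 arrays, so the gene's call after 50 h rests on 1 of its 2 probes. Leaving out each array in turn gave adjusted p of 0.0361 to 0.0973 for A_15_P147281 after 50 h. The call was lost in 7 of 12 fits, those without fed replicate 1, 2 or 3 or without any 1 of the 50 h arrays. Without fed replicate 1 the difference was -1.28 (adjusted p = 0.0973). Its 50 h signal was lower than the fed signal on each slide, with differences of -2.95, -0.87 and -1.34, each from 1 or 2 arrays per group. The only fed array of slide 1 was fed replicate 1. The brighter probe, A_15_P206911, gave -2.66, 0.37 and -1.07 on the same slides. The A_15_P147281 call held with the slide as a block (adjusted p = 0.0416) but not with the replicate number as a block (adjusted p = 0.0610).

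**Figure D2:**
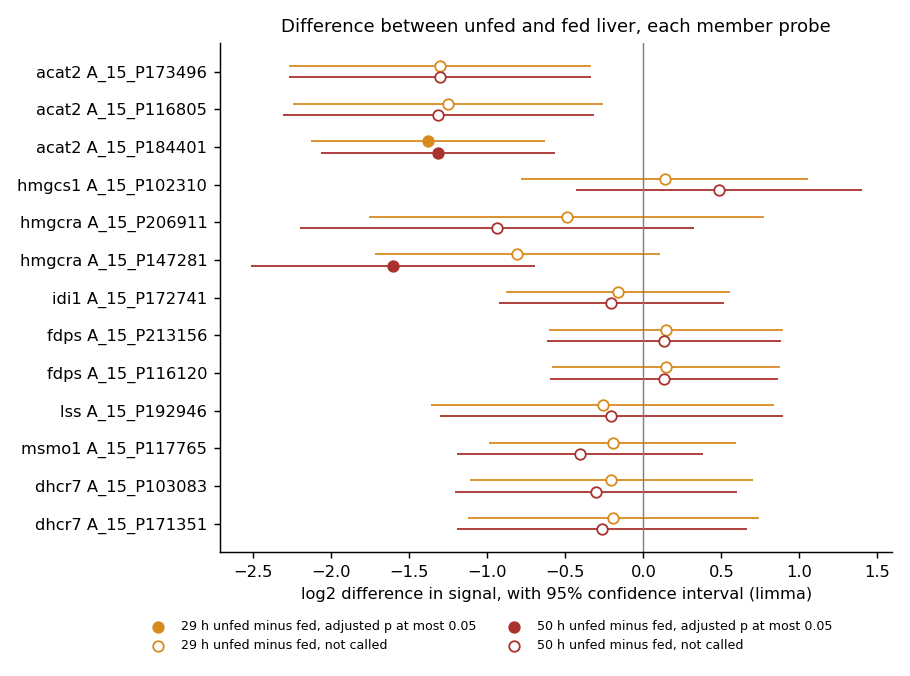
Log2 difference between unfed and fed liver (horizontal axis) for each of the 13 member probes, with 95% confidence intervals from limma. Filled points, at -1.38 and -1.32 for acat2 and -1.61 for hmgcra, passed an adjusted p of 0.05 and open points did not.

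The isoprenoid steps follow. The isomerase idi1 interconverts the pair of isoprenoid building blocks, and its probe read 11.57, 10.89, 11.10 and 10.04 in fed, 11.44, 10.83, 10.60 and 10.06 in 29 h, and 10.82, 10.85, 10.85 and 10.26 in 50 h pools. All 3 groups overlapped, and the 50 h pools spanned less than the others, with differences of -0.16 (interval -0.88 to 0.56) and -0.21 (interval -0.93 to 0.51). Farnesyl diphosphate synthase, fdps, joins the building blocks to farnesyl diphosphate, from which sterols, ubiquinone, dolichol and the prenyl groups of proteins branch. Its brighter probe, A_15_P213156, read 10.72, 9.74, 10.29 and 9.95 in fed, 11.47, 10.18, 9.80 and 9.82 in 29 h, and 10.07, 10.75, 10.17 and 10.25 in 50 h pools. Replicate 1 of the 29 h group was the highest pool of all, and the differences were 0.14 (interval -0.61 to 0.89) and 0.13 (interval -0.62 to 0.88). The second fdps probe gave 0.14 and 0.13 as well.

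Lanosterol synthase, lss, closes the ring system of the sterols. Its probe read 8.57, 7.66, 8.63 and 7.63 in fed, 9.26, 8.31, 6.87 and 7.01 in 29 h, and 7.14, 8.66, 7.91 and 7.96 in 50 h pools. The 29 h pools spanned the values of both other groups, and the differences were -0.26 (interval -1.36 to 0.84) and -0.21 (interval -1.30 to 0.89). The methylsterol monooxygenase msmo1 takes part in the removal of methyl groups from the ring. Its probe read 12.23, 10.53, 11.16 and 10.39 in fed, 11.52, 11.03, 10.50 and 10.48 in 29 h, and 10.67, 11.01, 10.52 and 10.51 in 50 h pools. Fed replicate 1 was the highest, and the differences were -0.20 (interval -0.99 to 0.59) and -0.41 (interval -1.2 to 0.38). The reductase dhcr7 makes cholesterol from 7-dehydrocholesterol. Its brighter probe, A_15_P103083, read 11, 9.95, 9.89 and 9.95 in fed, 11.02, 10.28, 9.32 and 9.35 in 29 h, and 10.18, 10.27, 10.15 and 8.98 in 50 h pools. Replicate 1 stood above the other 3 in the fed and 29 h groups and replicate 4 below them in the 50 h group. The differences were -0.21 (interval -1.11 to 0.70) and -0.30 (interval -1.21 to 0.60), and the second dhcr7 probe gave -0.19 and -0.27. None of the probes of idi1, fdps, lss, msmo1 and dhcr7 passed the test, with adjusted p of 0.528 or more, and all of their groups overlapped. The widest of their intervals, that of lss, reaches to 2.56-fold lower and 1.86-fold higher, so changes within that range were not excluded for lss.

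Between 50 h and 29 h without food no member probe was called by limma (0 of 13, and 0 of 13 at an unadjusted p under 0.05), where 0.00622% of all probes, 1 probe in number, was called. The member differences ran from -0.80 for hmgcra to 0.35 for hmgcs1, with a median over the 13 probes of -0.04. Groups that did not overlap with fed liver were counted as well. After 29 h 1 of 13 member probes lay wholly below the fed values (9.79% of all probes did), and after 50 h 4 of 13 did (7.83% of all), namely the 3 probes of acat2 and 1 of hmgcra.

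The members differed more between pools of the same group than most of the array. The SD between pools within groups was 0.52 to 0.94 over the 13 probes, with a median of 0.67, against a median of 0.24 over all 16082 probes. The percentile among all probes ran from 90.9 for idi1 to 98 for hmgcra A_15_P206911. The median standard error of a difference was accordingly 0.42 for the members and 0.16 for all probes.

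**Figure D3:**
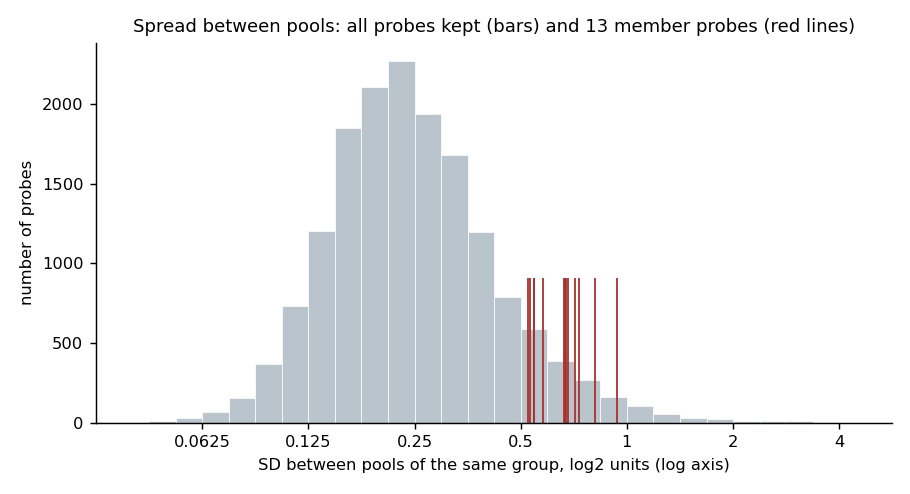
Distribution of the SD between pools of the same feeding group (horizontal log axis, log2 units) over all 16082 probes kept (bars, number of probes), with the 13 member probes as red lines. The member lines lie from 0.52 to 0.94, in the upper tail of the distribution, whose median is 0.24.

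The deviations were shared between the enzymes. When each gene's brightest probe was set to its own mean over the 12 arrays, the 8 genes together stood 1.05 above it in fed replicate 1 and 0.95 above it in replicate 1 of the 29 h group. All 8 genes were above their means in both of those pools. In replicates 3 and 4 of the 29 h group all 8 genes were below their means, by 0.51 and 0.77 on average. The other arrays lay between -0.36 (50 h replicate 4) and 0.30 (50 h replicate 2). Fed replicate 1 was the highest fed pool for 6 of 8 genes, 29 h replicate 1 the highest of its group for 8 of 8, and 50 h replicate 2 the highest of its group for 6 of 8. Fed replicate 1 and 29 h replicate 1 shared a slide, on which 29 h replicate 2 and 50 h replicate 1 averaged 0.01 and -0.33. The exocrine pancreas sum was 1025 (in units of 1000) in fed replicate 1 and 389 in 29 h replicate 1, and the highest sum of all, 1035, was in 50 h replicate 3, where the members averaged -0.13. The leukocyte sum was 16.0 in fed replicate 1, 42.5 in 29 h replicate 1 and 43.2 in 50 h replicate 2. It was also 33.9 in 29 h replicate 3 and 35.7 in 50 h replicate 3, where the members averaged -0.51 and -0.13. The intestine sum was 210 in fed replicate 1, 284 in 29 h replicate 1 and 271 in 29 h replicate 3. It was 253 in 50 h replicate 2 and 258 in 50 h replicate 3. In this sum apoa4b.1, with a mean log2 signal of 17.7 in each group, outweighed fabp2 and vil1, with group means of 9.3 to 12.2. Differences in fabp2 and vil1 are therefore damped in it. The part of these cells in the shared deviations was not tested.

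**Figure D4:**
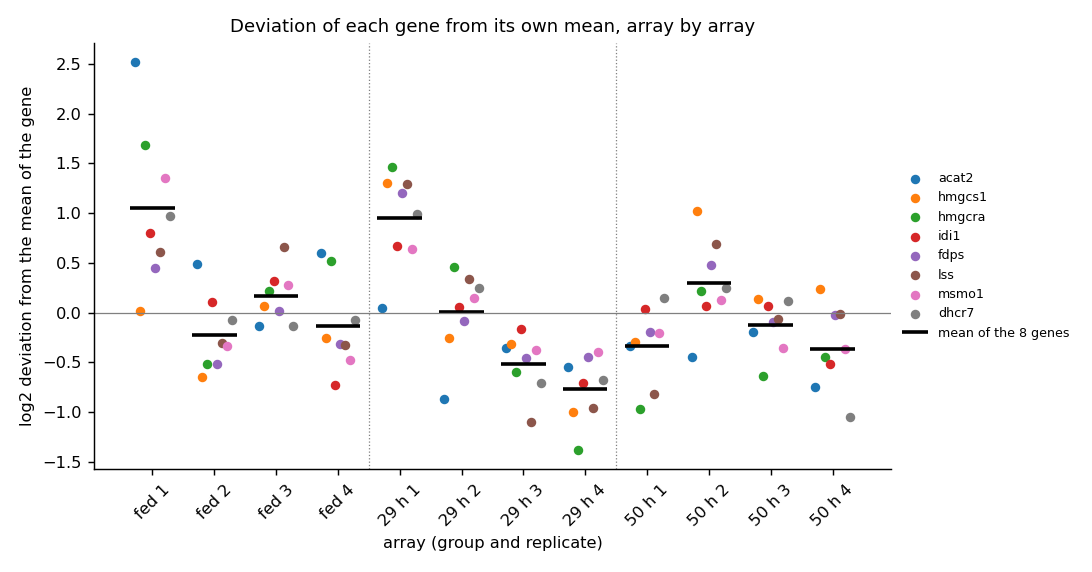
Log2 deviation of each of the 8 genes from its own mean over the 12 arrays (vertical axis), array by array, with the mean of the 8 genes as a black line. Fed replicate 1 and 29 h replicate 1 lie highest, at means of 1.05 and 0.95, and 29 h replicate 4 lies lowest at -0.77.

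After the mean of each feeding group was subtracted, all 28 pairs of the 8 genes had a positive Pearson correlation over the 12 arrays, with a median r of 0.72 and a range of 0.18 to 0.92, given as a description since the points share libraries and slides. The gene that followed the others least was acat2. Its 7 correlations within groups, computed in the same way, ran from 0.18 with lss to 0.67 with msmo1, while the 21 pairs without acat2 ran from 0.60 to 0.92. In 29 h replicate 1, where hmgcs1, hmgcra, fdps and lss stood 1.2 to 1.46 above their means, acat2 stood only 0.05 above its own. In fed replicate 1 it was acat2 that stood highest, 2.52 above its mean, followed by hmgcra at 1.69 and msmo1 at 1.35, and hmgcs1 was at 0.02.

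The probes outside the members whose pattern was most like the mean pattern of the 8 genes were ranked among named probes by Pearson r over the 12 arrays, here with the group means kept. The 5 nearest were both probes of cyp51 (r = 0.93 and 0.88), which removes a methyl group from lanosterol, engase (0.82), which cuts sugar chains from glycoproteins, ebp (0.82), the sterol isomerase, and sc5d (0.81), the sterol desaturase that acts just before dhcr7. Of these 5 probes 4 thus belonged to later steps of the same pathway. None was called in either food comparison. The members, which are themselves part of the mean pattern, ran from hmgcra A_15_P206911 at r = 0.93 (rank 2 of 16031 probes) to acat2. The 3 acat2 probes had r of 0.52 to 0.65, at ranks 140, 202 and 591.

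A list of 16 other genes of the pathway had 12 on the array and 11 past the filter. After 29 h and again after 50 h 1 of the 11 was called lower, nsdhl, none was called higher, and 10 were not called. Of all probes, 3.6% were called lower and 2.15% higher after 29 h, and 2.8% and 3.2% after 50 h. The median of the 11 was -0.22 after 29 h and -0.21 after 50 h. The enzyme nsdhl is a sterol dehydrogenase that acts after msmo1 in taking methyl groups off the ring. Its brighter probe, A_15_P210806, fell by 0.76 (SE 0.11, adjusted p = 0.00469) after 29 h and by 0.60 (SE 0.11, adjusted p = 0.0115) after 50 h, from 10.99 ± 0.10 (SD, n = 4) in fed to 10.23 ± 0.12 and 10.39 ± 0.15. Its second probe fell by 0.71 and 0.53. The nsdhl pools of a group lay close together, unlike those of the 8 members, and neither unfed group overlapped the fed group. The second reductase gene, hmgcrb, gave -0.31 and -0.03 (adjusted p = 0.180 and 0.915).

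Genes that sense sterol and take it up were counted in the same way. Of 22 sought, 12 were on the array and past the filter, and none was called in either food comparison. Among them srebf2, which encodes SREBP2, gave 0.08 and 0.06, and the low density lipoprotein receptor ldlra gave 0.12 and -0.63. The SREBP retention factors insig1 and insig2 gave -0.12 and 0.05 after 29 h and -0.16 and -0.60 after 50 h. Of 22 genes for cholesterol removal and storage only 3 could be tested, and none was called.

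For the DDVP arrays the deposited values cover 5481 probes. The authors picked these on the DDVP and feeding arrays together, so that a high share of called probes is built into the table. Of the 8 genes only acat2 is among them, with the same 3 probes, and the other 7 were not analysed there. Each concentration was set against the 8 controls in limma, with Benjamini-Hochberg adjustment over the 5481 probes and a probe was called where its adjusted p did not exceed 0.001 and its change reached 1.8-fold. All 3 acat2 probes were called higher at the low concentration (13.4% of the table's probes were), at mid (31.9%) and at high (39.4%).

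The brightest acat2 probe read 12.36, 10.85, 10.88 and 10.19 in control set 1 and 10.78, 10.87, 11.54 and 11.09 in control set 2. The low pools read 12.46, 12.32, 12.72 and 14.03, the mid pools 13.98, 13.61, 13.94 and 13.99, and the high pools 13.85, 13.56, 13.52 and 13.57. Replicate 1 of control set 1 stood above the other controls and above the lowest low pool, while all mid and high pools lay above every control. The log2 value rose by 1.81 (SE 0.30, adjusted p = 1.92e-05) at low, by 2.81 (SE 0.30, adjusted p = 1.86e-08) at mid and by 2.55 (SE 0.30, adjusted p = 5.29e-08) at high, which is 3.52-, 7.02- and 5.87-fold. The other probes gave 1.66 and 1.36 (low), 2.83 and 2.39 (mid), and 2.74 and 2.27 (high).

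For A_15_P184401 the controls read 6.23 at the lowest, 6.93 at the median and 7.60 at the highest. The low pools read 7.71, 8.01, 8.43 and 9.17, and all lay above the highest control, the lowest of them narrowly. The mid pools read 9.19, 9.51, 9.21 and 9.52 and the high pools 9.34, 9.36, 8.90 and 9.34, and these ranges overlapped each other. The difference between concentrations was not tested. With control set 1 alone as the comparison, the low concentration gave 1.66 for A_15_P116805 with an adjusted p of 0.00112, past the limit of 0.001, and it was the only DDVP call of acat2 that another setting ended. In the deposited table control set 1, control set 2 and the 29 h unfed group have the same mean for every probe within 1e-04, so the spread between the control sets is understated and no distance between these groups can be read from it.

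**Figure D5:**
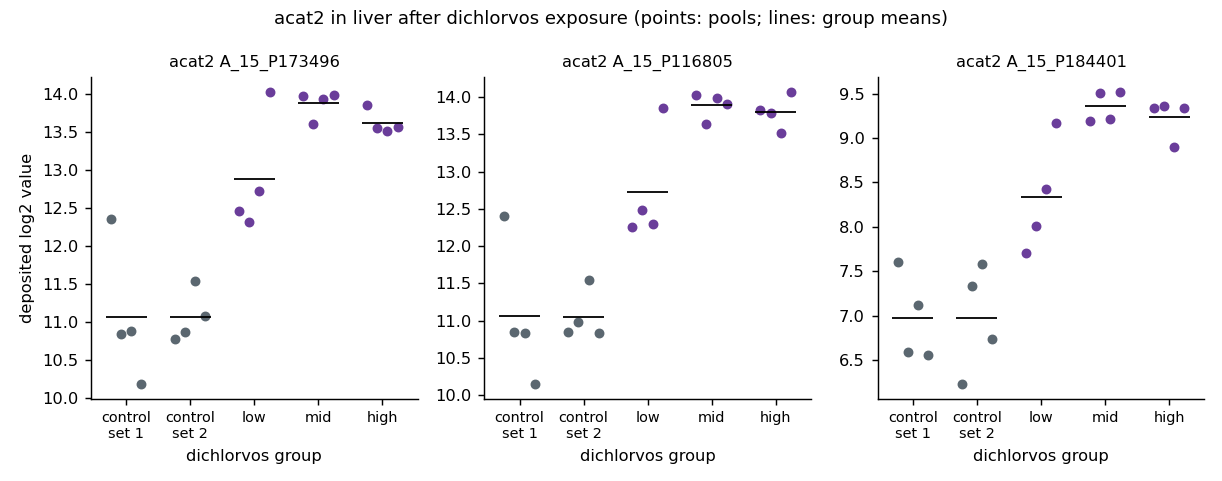
Deposited log2 values (vertical axis) of the 3 acat2 probes in control and DDVP pools (low, mid and high), with 4 pools per group as points and group means as lines. All mid and high pools lie above every control pool on each probe, low replicate 4 lies near the mid values and the other low pools lie below them.

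The same 3 probes in the deposited values of the feeding arrays gave -1.31, -1.26 and -1.55 after 29 h and -1.34, -1.35 and -1.52 after 50 h against fed liver. The feeding arrays were also used to pick the probes of that table. On the arrays the acat2 transcript was thus higher in exposed than in unexposed liver by 1.36 to 2.83. It was lower in unfed than in fed liver by log2 differences of -1.26 to -1.55 in the deposited values. There only A_15_P184401 was called (limma adjusted p = 0.0115 after 29 h and 0.0135 after 50 h). The other acat2 probes were not called against fed liver in any setting, with limma adjusted p of 0.0502 or more. By exposure and feeding alike, the 3 probes follow the same transcript. In the study's own second assay, QuantiGene on pooled RNA, acat2 was raised at high DDVP. In that assay it read higher in 29 h unfed than in fed liver, and somewhat lower in 50 h unfed than in fed liver. Feeding and exposure were separate experiments, read on different scanners and aligned by the authors, so the sizes of their effects are not directly comparable. The difference between these effects was not tested.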

How the data were processed

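Livers of male zebrafish were profiled on single-colour Agilent arrays, 4 pools per group. For the 12 feeding arrays the deposited files hold spot intensity values from Agilent Feature Extraction 10.7.1.1. The median signal, which per the file headers is not background-corrected, was quantile normalized over the arrays and taken to log2. Control spots and spots marked as outliers were left out, spots of a probe were averaged, and a probe was kept where its signal to noise ratio reached 3 on every array of 1 group or more. Groups were compared with limma 3.58.1 (lmFit and eBayes, R 4.3.3) in 1 fit, with Benjamini-Hochberg adjustment and 95% intervals. For the 20 DDVP arrays, and as an alternative for acat2 on the feeding arrays, the deposited log2 values were used. The authors made these by quantile normalization, kept probes at a false discovery rate of 0.001 and removed a batch effect in Partek Genomics Suite. Nothing in the labels gives separate tanks or cultures, so p-values measure the spread between pools.

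Probes were named through RefSeq accessions and a table of zebrafish genes (15163 of 43603 probes named, 19212 with a RefSeq accession). A gene is represented by its probe with the highest mean, every member probe is reported, and of other lists the counts and at most 5 called genes with the largest changes. The members and lists were chosen with earlier results of these data known. The alternatives were the processed signal, scaling to the 75th percentile, a normexp background (on the median signal with an offset of 50, since no mean signal was used here), no filter, the slide or the replicate number as a block, no variance moderation, the threshold 0.001 and leaving out each array. Leaving out each control array and the deposited values for acat2 were added after seeing the data. The fit was tested on simulated data. Tables were handled in python 3.11.15 (pandas 2.3.3 and numpy 2.4.6) and drawn with matplotlib 3.10.9.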

Additional observations from a re-analysis of the deposited data

Results flagged for a closer look

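In 9 of 51 groups of pools of a member probe 1 pool stood apart from the rest by a Dixon test, which chance alone does in about 1 of 20 groups, and probes of the same gene repeat each other. On the feeding arrays fed replicate 1 was high for dhcr7, at 11 on A_15_P103083 and 10.88 on A_15_P171351, where the other fed pools read 9.89 to 9.95 and 9.67 to 9.77. Replicate 4 of the 50 h group was low for dhcr7, at 8.98 and 8.84 against 10.15 to 10.27 and 10.02 to 10.13. The same pool was low for idi1, at 10.26 against 10.82 to 10.85. On the DDVP arrays low replicate 4 was high on acat2 A_15_P116805, at 13.85 against 12.25 to 12.48. On A_15_P173496 mid replicate 2 was low, at 13.61 against 13.94 to 13.99, and high replicate 1 was high, at 13.85 against 13.52 to 13.57. On A_15_P184401 high replicate 3 was low, at 8.90 against 9.34 to 9.36.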

How the results depend on the processing

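The results of all member probes in the feeding comparisons were checked 789 times in total, by a refit or by moving the threshold to 0.001. Each result of a probe in a comparison had 20 or 21 of these checks. Of these checks 753 kept their side of the threshold, 36 lost a call and none reversed a called direction. At 0.001 an uncalled result could not change side. The call was lost in 11 of 21 checks for acat2 A_15_P184401 after 29 h and in 14 of 21 after 50 h. Without the check at 0.001 these were 10 of 20 and 13 of 20. For hmgcra A_15_P147281 after 50 h the call was lost in 11 of 20 checks, or 10 of 19 without that at 0.001. All other member results were uncalled and stayed so. The member counts, 1 after 29 h and 2 after 50 h, were the same under the processed signal, 75th percentile scaling and normexp. Both counts dropped to 0 without the signal filter, with the replicate block, without variance moderation and at an adjusted p of 0.001, and the 50 h count to 1 with the slide block. Leaving out 1 array gave 0 to 1 and 0 to 2. Over all probes the 29 h count of 924 became 597 without the filter, 590 with the slide block, 1 at 0.001 and 322 to 1056 with 1 array left out. The 50 h count of 965 became 640 with the slide block, 634 with the replicate block, 3 at 0.001 and 333 to 1255 with 1 array left out. The single call between 50 h and 29 h became 0 with the slide block, the replicate block, no moderation or 0.001, and 1 to 2 with 1 array left out. The causes were not tested. After group means were removed, pools sharing a number correlated over all kept probes at r of -0.30 to 0.37, over 0.1 in 4 of 12 pairs. Pools of different numbers gave r of -0.37 to 0.34, over 0.1 in 17 of 36 pairs. With both ranges alike, these correlations cannot settle whether the numbers pair the pools. With the replicate block the DDVP calls of acat2 stayed at 3 of 3 probes per concentration. Member probes vary much between pools, so their intervals are wide and changes within them were not excluded.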

Other observations

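Genes of neighbouring pathways were counted in the same limma fits, with Benjamini-Hochberg adjustment. Of all probes, 3.6% were called lower and 2.15% higher after 29 h, and 2.8% and 3.2% after 50 h. The lists were chosen with earlier results of these data known. Of 7 genes of the isoprenoid branches tested, pdss2, a subunit of the enzyme that makes the ubiquinone side chain, fell by 0.98 (adjusted p = 0.00357) after 29 h and by 0.77 (adjusted p = 0.00886) after 50 h. The farnesyltransferase subunit fnta fell by 0.36 (adjusted p = 0.0349) after 29 h and gave -0.18 (adjusted p = 0.224) after 50 h, and its 29 h call was lost in 11 of 20 other settings. The other 5 genes were not called.

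Of 7 genes of fatty acid synthesis tested, 2 were called lower and 1 higher after 29 h, and 3 lower and 1 higher after 50 h. The stearoyl-CoA desaturase scd, which makes monounsaturated fatty acids, fell at both times (adjusted p = 0.0264 and 0.0265). Its probe stood well above background on 4 of 4 fed arrays but on only 3 of 4 at 29 h and 1 of 4 at 50 h, where the groups overlapped, so the size of the fall is not well measured and ran from -3.24 to -5.84 over the settings at 50 h. The gene mid1ip1b fell by 1.22 after 29 h and fell by 1.25 after 50 h (adjusted p = 0.0435 and 0.0295). Its paralog mid1ip1a rose at both times (adjusted p = 0.0257 and 0.0138), but its fed signal of 5.77 was close to background and well above it on 3 of 4 arrays, and the size of the rise ran from 1.81 to 3.57 at 29 h and 2.20 to 4.01 at 50 h over the settings. The elongase elovl6 fell by 1.5 (adjusted p = 0.0448) after 50 h. Of these calls at 29 h scd was lost in 12, mid1ip1b in 14 and mid1ip1a in 8 of 20 other settings, and at 50 h scd in 9, mid1ip1b in 8, mid1ip1a in 1 and elovl6 in 15 of 20. Of 15 genes of the fasting response tested, each by its brightest probe, 1 was called higher after 29 h and 14 were not called. After 50 h 1 was called higher, 1 lower and 13 were not called. The medians of the 15 were 0.04 and 0.07. The gene called higher was igfbp1b, which encodes a binding protein of insulin-like growth factors that is known to rise in fasting. It rose by 2.19 (adjusted p = 0.0125) and 1.94 (adjusted p = 0.0202). For its paralog igfbp1a the brightest probe gave 1.29 after 29 h (adjusted p = 0.0640) and was not called. Its dimmer probes gave 1.37 and 1.45 (adjusted p = 0.0471 and 0.0474), the latter call being lost in 15 of 20 other settings. After 50 h the igfbp1a probes gave 0.45, 0.37 and 0.30, uncalled. The gene fbp1b, a fructose bisphosphatase of glucose synthesis, fell by 0.50 (adjusted p = 0.0423) after 50 h. The groups of fbp1b overlapped and its call was lost in 15 of 20 other settings, while that of igfbp1b was lost in 1 of 20 at 29 h and 4 of 20 at 50 h.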
